A study of Homo sapiens with 8 samples.

Results

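The distal end of the long arm of chromosome 9, band 9q34, carried 926 of the 19721 EZH2 peaks that were called in the 4 ChIP-seq lists. These peaks were chosen by position and with the peak lists in view: all peaks on chromosome 9 whose midpoint lies at or beyond 136000000 in hg18, leaving out chr9:138660000-138700000, the locus of EGFL7, which held 36 further peaks. The values that led to this choice are the positions and numbers of the peaks in NTKO and TKO cells, so comparisons of the lines by number, overlap, height or width are descriptions without a test. The exception is a fit of heights over all regions of the genome with a peak in every list, which is not independent of the choice either. The section held 129 of 2972 peaks of NTKO run 1, 442 of 10582 peaks of NTKO run 2, 11 of 651 peaks of TKO run 1 and 344 of 5516 peaks of TKO run 2.

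EZH2 is the catalytic subunit of Polycomb repressive complex 2, which methylates lysine 27 of histone H3 and keeps developmental genes silent. MMSET, also named NSD2 or WHSC1, dimethylates lysine 36 of the same histone tail and is overexpressed in myeloma with the t(4;14) translocation. Polycomb complexes are known to occupy broad, CpG-rich domains, and distal 9q34 is rich in genes and CpG islands.

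The study compared EZH2 binding in derivatives of KMS11, a human myeloma line that carries t(4;14). NTKO cells have lost the wild-type MMSET allele, keep the translocated one and have high levels of MMSET. TKO cells have lost the translocated allele, keep the wild-type one and have low levels. Both lines were used at passage 15 to 20 and were immunoprecipitated with the same EZH2 antibody in 2 runs per line, which the study describes as independent biological replicates. Each line stands for 1 engineered genotype, so a property of the line and an effect of MMSET cannot be told apart here. The 4 input samples enter only through the peak calls.

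RefSeq places COL5A1, a fibrillar collagen gene, the ficolin genes FCN2 and FCN1, OLFM1, KCNT1, a potassium channel gene, and LHX3, a homeobox gene, in this order toward NOTCH1. NOTCH1, the receptor gene, and AGPAT2 are the protein-coding neighbors of EGFL7, and GRIN1, EHMT1 and CACNA1B follow toward the end of the arm. EHMT1 encodes a histone H3 lysine 9 methyltransferase. That order is background from another build (GRCh38.p14). No peak was assigned to a gene, and the place in this order at which the section begins was not determined.

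The share of each list that fell in distal 9q34 was 4.34% (95% Wilson interval 3.66 to 5.13) and 4.18% (3.81 to 4.58) in NTKO runs 1 and 2. For TKO cells it was 1.69% (0.946 to 3.00) in run 1 and 6.24% (5.63 to 6.91) in run 2. The intervals cover counting error only. Both NTKO runs gave nearly the same share, whereas the TKO runs lay on either side of it. In run 2 there were 1.28 NTKO peaks for each TKO peak in the section, against 1.96 in the rest of the genome. In run 1 the order was turned, with a ratio of 11.7 in the section against 4.44 elsewhere. Relative to the rest of each list, the section therefore leaned to TKO cells in run 2 and to NTKO cells in run 1. The ratio of the ratios between runs was 9.13 in the section and 2.27 elsewhere.

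The peaks covered 84.6 kb and 410 kb in NTKO runs 1 and 2, and 5.56 kb and 182 kb in TKO runs 1 and 2. By covered length the NTKO to TKO ratio in run 2 was 2.26, close to the 2.33 of the rest of the genome. In run 2 the section thus had more, and narrower, peaks per covered base in TKO cells than in NTKO cells, with median widths of 301 bp and 419 bp. In run 1 the median widths were 351 bp (TKO) and 347 bp (NTKO).

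**Figure D1:**
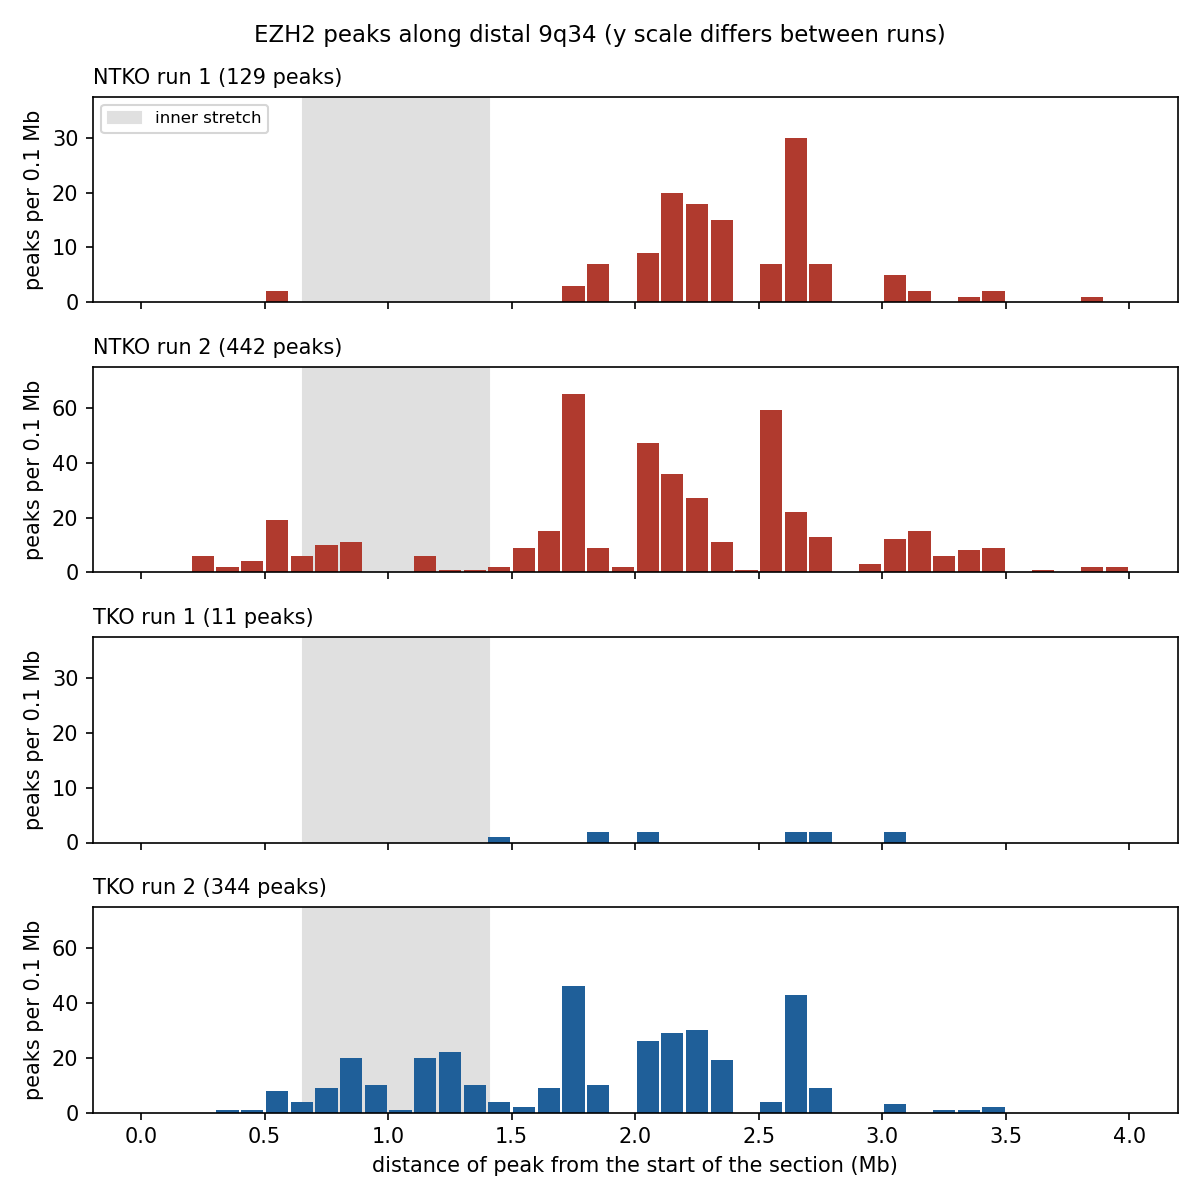
Number of EZH2 peaks per 0.1 Mb (y axis) against distance from the start of the section in Mb (x axis), 1 panel per sample, with the y scale of run 2 larger than that of run 1; the shaded stretch runs from chr9:136656422 to 137407908. Run 2 peaks of both lines crowd beyond the shaded stretch, which holds 97 TKO run 2 peaks, 33 NTKO run 2 peaks and none of either run 1.

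The median summit height, the read level at the highest point of a peak, was 48 and 58.5 in NTKO runs 1 and 2, and 42 and 56.5 in TKO runs 1 and 2. The medians over the rest of the genome were 52, 63, 44 and 66 in the same order, so the section was lower in 4 of 4 lists. The rest of chromosome 9 lay close to the section, at 48.5, 60, 45 and 56. The mean log2 difference was -0.13 ± 0.07 (SD, n = 4 lists), with an exact two-sided sign-flip permutation test p of 0.125, the smallest that 4 lists allow, and 0.188 after Benjamini-Hochberg adjustment over 3 measures. The mean read level over the peak differed by -0.09 ± 0.06 (exact permutation p = 0.125, adjusted 0.188, n = 4). Width differed by 0.07 ± 0.25 (exact permutation p = 0.625, adjusted 0.625, n = 4), and only TKO run 2 had narrower peaks in the section than elsewhere. The design cannot reach a p of 0.05 for any of these. The 4 lists are runs of NTKO and TKO cells, both derived from KMS11, so they are not fully independent units. Each list counted equally, also TKO run 1 with 11 peaks in the section.

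In NTKO run 2, 63.5% of neighboring peaks lay within 1 kb of each other, against 49.4% in the rest of the genome. The share was 57.1% against 42.5% in TKO run 2 and 51.6% against 38.5% in NTKO run 1. TKO run 1, with 11 peaks, had 30.0% against 29.7%. Closer spacing than in the rest of the genome was thus seen in the 3 lists that had more than 100 peaks in the section. In the rest of chromosome 9 the run 2 shares were 55.9% (NTKO), above the rest of the genome, and 41.2% (TKO), slightly below it. A dense stretch of chromosome 1, chr1:2500001-3500000, picked for comparison with its values known, had 57.6% (NTKO) and 67.5% (TKO). In NTKO run 2 both parts thus had closer spacing than the rest of the genome, though less close than the section. In TKO run 2 only the chromosome 1 stretch had it. Joining peaks within 1 kb left 162 clusters of the 442 NTKO run 2 peaks and 148 of the 344 TKO run 2 peaks.

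The longest cluster of the section, chr9:138597118-138647706, spanned 50.6 kb on the centromere side of the excluded EGFL7 locus. It held 16 NTKO run 2 peaks that covered 45.7 kb of it. TKO run 2 had 38 peaks there, which covered 22.4 kb, NTKO run 1 had 23 peaks over 14.5 kb, and TKO run 1 had 2 peaks over 2.30 kb. The same stretch was thus nearly continuous in NTKO run 2 and broken into more, shorter peaks in TKO run 2. A second NTKO run 2 cluster, chr9:138278606-138301006, spanned 22.4 kb. It held 8 NTKO run 2 peaks over 20.0 kb and 17 TKO run 2 peaks over 7.74 kb. NTKO run 1 had 12 peaks over 5.60 kb there, less than TKO run 2. The next longest, chr9:137808543-137826525, spanned 18.0 kb, with NTKO run 2 peaks over 16.5 kb and TKO run 2 peaks over 11.2 kb. NTKO run 1 covered 6.83 kb of it. These clusters were chosen for their length in NTKO run 2, which by itself favors that list in covered length. The longest TKO run 2 cluster, chr9:137811145-137824078, was 12.9 kb long and lay wholly under 1 NTKO run 2 peak.

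Single wide peaks were likewise most numerous in NTKO run 2. NTKO run 2 had 10 of 442 peaks of at least 5 kb, TKO run 2 had 1 of 344, and the run 1 lists had 0. The rest of the genome had 149 of 10140 in NTKO run 2 and 32 of 5172 in TKO run 2. It had 19 of 2843 in NTKO run 1 and 0 of 640 in TKO run 1. More wide peaks in NTKO run 2 were thus not particular to the section. The widest was chr9:138631414-138646127 in NTKO run 2, 14713 bp long with a summit height of 154. The widest TKO run 2 peak, chr9:137817990-137824078, was 6088 bp long with a summit height of 164. Of the NTKO run 2 peaks, 53 lay over 2 or more TKO run 2 peaks, at most 10, whereas 6 TKO run 2 peaks lay over 2 NTKO run 2 peaks. These overlaps were not counted over the genome, so whether they are particular to the section is not known.

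A peak of 1 line was called matched, or shared, if it met a peak of the other line by 1 bp or more. Of the 344 TKO run 2 peaks, 83 (24.1%, interval 19.9 to 28.9) had no NTKO run 2 peak, close to the share of 23.7% over the whole list. Of the 442 NTKO run 2 peaks, 292 (66.1%, interval 61.5 to 70.3) had no TKO run 2 peak, against 70.7% over the whole list. The interval of the NTKO share lies just below its background. It covers counting error only, treats neighboring peaks of 1 sample as independent, and is no test of the section. In the rest of chromosome 9 the TKO share was 13.4% (interval 9.93 to 17.7), lower than in the section. In the chromosome 1 stretch it was 70.2% of 339 peaks.

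In run 1, 1 of the 11 TKO peaks in the section (9.09%, background 17.7%) had no NTKO peak, and 122 of the 129 NTKO peaks (94.6%, background 86.6%) had no TKO peak. Most peaks of run 1 were found again in the larger run 2 list of the same line. In NTKO cells 128 of 129 were (99.2%, background 94.3%), and in TKO cells 11 of 11 were (background 83.6%). Conversely, 73 of 442 NTKO run 2 peaks (16.5%, background 19.0%) and 8 of 344 TKO run 2 peaks (2.33%, background 7.61%) had been called in run 1.

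The peaks of run 1 were also largely found across the lines. All 11 TKO run 1 peaks overlapped an NTKO run 2 peak (background 84.5%), and 98 of the 129 NTKO run 1 peaks (76.0%, background 62.6%) overlapped a TKO run 2 peak. Peaks found in both runs were far higher in run 2. In the 69 NTKO pairs of the section the median height was 53 in run 1 and 111 in run 2, a log2 ratio of 1.04 against 0.88 over all pairs. In the 8 TKO pairs it was 46.5 and 145.5, a log2 ratio of 1.68 against 1.42. The lists carry no sequencing depth, so the part of depth in these differences between runs was not tested.

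The unmatched TKO peaks were unevenly spread along the section. In the 0.5 Mb windows counted from its start, the TKO run 2 peaks numbered 2, 51, 57, 67, 104, 56, 7 and 0. The NTKO run 2 peaks numbered 12, 46, 10, 100, 122, 97, 50 and 5 in the same windows. TKO run 2 thus had more peaks than NTKO run 2 in the second and the third windows and fewer in every other. Of the TKO run 2 peaks, 56.9% (interval 43.3 to 69.5) had no NTKO peak in the second window and 86.0% (74.7 to 92.7) in the third. In the fourth it was 4.48%. In the fifth it was 0 of 104, which allows a share of up to 2.88% by a limit of 3 counts and 3.56% by the Wilson interval. In the sixth it was 0 of 56, which allows up to 5.36% and 6.42% by the same limits.

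The windows of NTKO run 1 held 0, 2, 0, 10, 62, 44, 10 and 1 peaks, and those of TKO run 1 held 0, 0, 1, 2, 2, 4, 2 and 0. Neither run 1 list reached the density of run 2 in the second and the third windows. The NTKO run 2 peaks without a TKO peak made up 45.7% and 30.0% in these windows and between 57.4% and 100% in the others.

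**Figure D2:**
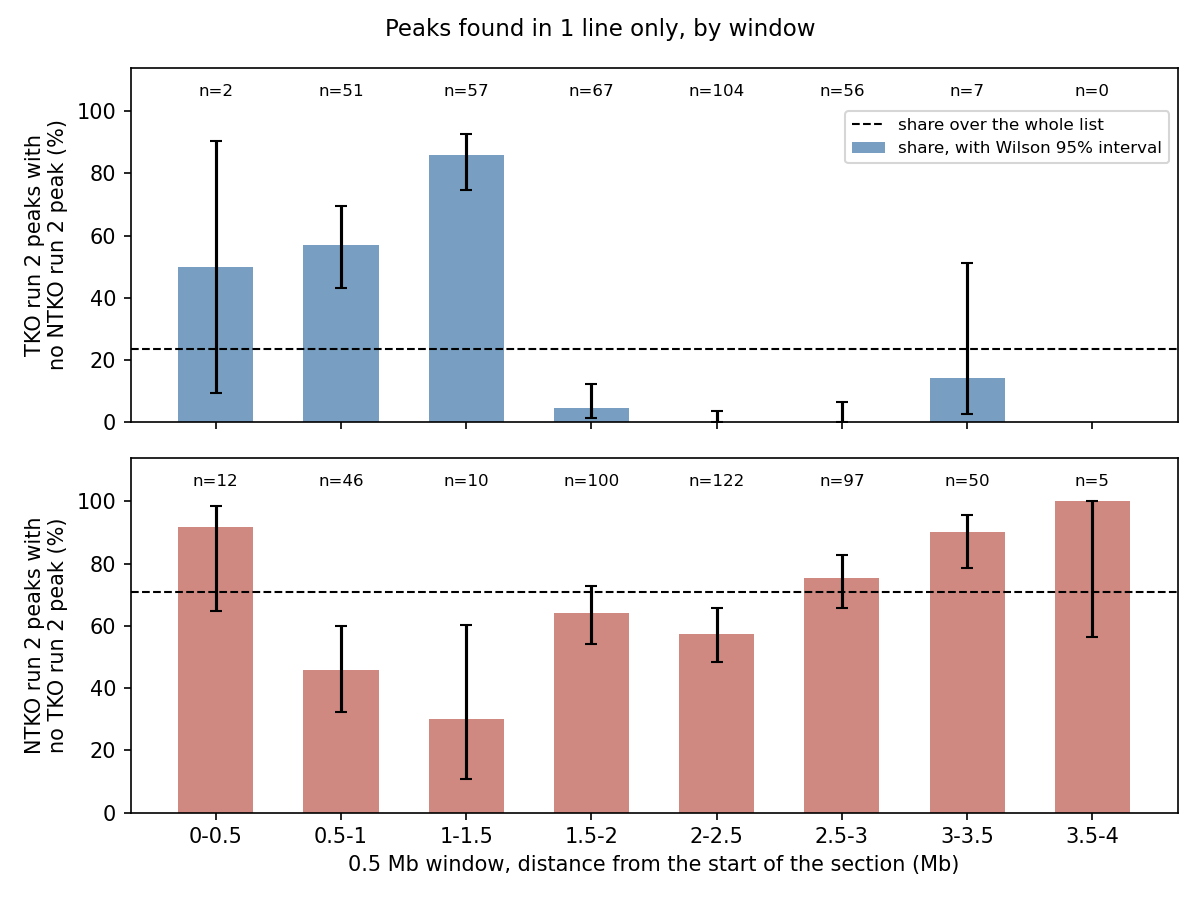
Share in percent of run 2 peaks with no overlapping peak of the other line (y axis), TKO peaks above and NTKO peaks underneath, in 0.5 Mb windows by distance from the start of the section in Mb (x axis), with Wilson 95% intervals, the number of peaks, and the share over the whole list as a dashed line. The TKO share is 56.9% and 86.0% in the second and the third windows and at most 4.48% in the fourth to sixth.

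The unmatched TKO peaks lay together. All but 5 of the 83 fell within 751 kb, chr9:136656422-137407908, an inner stretch whose limits were set after these peaks had been seen. It held 97 TKO run 2 peaks that covered 38.5 kb and 33 NTKO run 2 peaks that covered 9.38 kb. Of the TKO run 2 peaks there, 78 (80.4%, interval 71.4 to 87.1) had no NTKO run 2 peak, and of the NTKO run 2 peaks, 9 (27.3%, interval 15.1 to 44.2) had no TKO run 2 peak. In all other parts of the section together, 2.02% of the TKO run 2 peaks were unmatched. No peak of either run 1 list fell in the inner stretch, so the pattern there rests on 1 sample of each line.

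In both lines the median height of run 2 peaks was lower in the inner stretch than after it, where it was 59 (TKO) and 61 (NTKO). Before the stretch it was 48 over 10 TKO peaks and 57 over 33 NTKO peaks. Only the NTKO median was thus lower in the stretch than on both sides. TKO run 2 summit heights ranged from 43 to 99 with a median of 53, and NTKO run 2 heights from 43 to 68 with a median of 49. The ranges overlapped, and only the TKO peaks went above 68.

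On the side toward the centromere, chr9:136000000-136656421 held 10 TKO and 33 NTKO run 2 peaks, and 1 of the 10 was unmatched. On the side toward the telomere, chr9:137407909-139906085 held 237 TKO and 376 NTKO run 2 peaks, with 4 of the 237 (1.69%) unmatched. The NTKO to TKO ratio of run 2 peak numbers was thus 3.30 before the inner stretch, 0.340 in it and 1.59 after it.

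Several gaps between NTKO run 2 peaks were filled by TKO peaks. Between neighboring NTKO run 2 peaks, chr9:137201728-137375669 was 174 kb long and held 28 TKO run 2 peaks, with a median height of 52 and a maximum of 77. By the number of TKO peaks inside, it ranked 3 of 737 such gaps in the genome, of which the fullest held 36. The gaps chr9:136876902-137112857 and chr9:137130393-137158417 held 11 TKO run 2 peaks each. All 3 lie in the inner stretch. Its limits were drawn from unmatched TKO peaks such as these, so the place of the gaps is no separate evidence.

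The reverse was seen outside the inner stretch. Between neighboring TKO run 2 peaks, chr9:138503221-138586164 was 82.9 kb long and held 54 NTKO run 2 peaks that covered 33.4 kb, with a median height of 57 and a maximum of 95. It ranked 7 of 1900 gaps of this kind, of which the fullest held 68. A longer gap, chr9:139065420-139247733, held 24 NTKO run 2 peaks, of which the highest reached 185. Long stretches called in 1 line and not in the other thus occurred in both directions within the section.

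The highest peak without an NTKO run 2 peak, chr9:139369700-139370073, had a height of 95 in TKO run 2 and lay outside the inner stretch. The next were chr9:137140270-137140963 and chr9:137141318-137142038, at 85 each, inside it. None of these 3 regions had a peak in TKO run 1 or in either NTKO run. The widest unmatched TKO peak of the stretch, chr9:136917516-136920068, was 2552 bp long with a height of 80. The 4 other unmatched peaks outside had heights of 74, 57, 45 and 48.

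**Figure D3:**
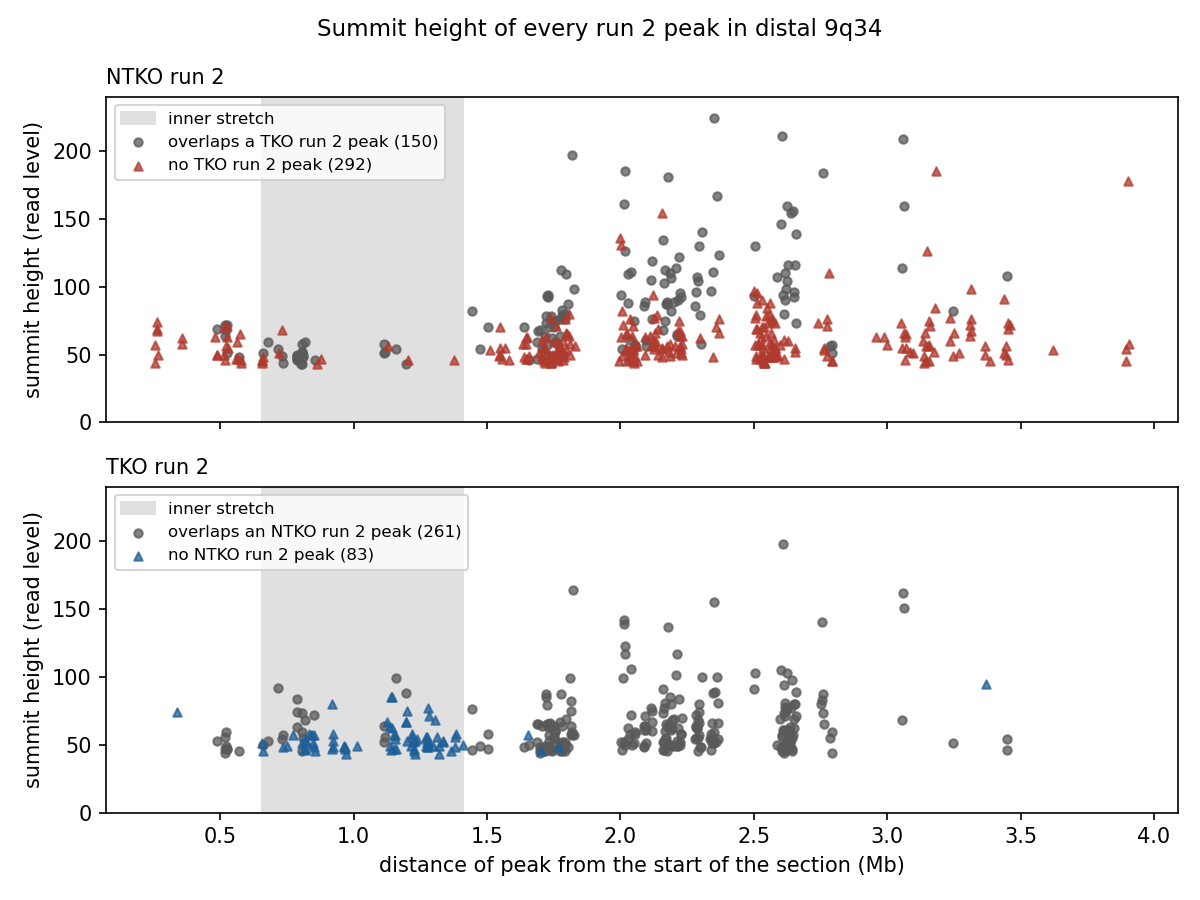
Summit height in read level (y axis) of every run 2 peak against distance from the start of the section in Mb (x axis), NTKO above and TKO underneath, with circles for peaks that overlap a peak of the other line and triangles for those that do not. The 83 unmatched TKO peaks have a median height of 52 and 78 of them lie in the shaded inner stretch, while the 292 unmatched NTKO peaks, median 55, occur along the whole section.

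Unmatched peaks were lower and narrower than shared ones in both lines. A match needs only 1 bp in common, which a wide peak meets more easily, so this order is partly built into the definition. The 261 shared TKO run 2 peaks had a median height of 59 and a median width of 352 bp, and the 83 unmatched ones 52 and 241 bp. In NTKO run 2 the 150 shared peaks had medians of 79 and 1166.5 bp and the 292 unmatched ones 55 and 318 bp. The same order held in the rest of the genome, at heights of 69 and 59 in TKO cells and 87 and 59 in NTKO cells. Of the shared NTKO run 2 peaks, 37.3% (interval 30.0 to 45.3) had been called in NTKO run 1, against 5.82% (3.67 to 9.12) of the unmatched ones. In the rest of the genome these shares were 44.7% and 8.63%, so the contrast was not particular to the section. Of the 83 unmatched TKO run 2 peaks, 0 were called in TKO run 1, which allows a share of up to 3.61% by the limit of 3 counts and 4.42% by the Wilson interval, against 3.19% of those in the rest of the genome.

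The 4 lists merged into 516 regions in the section, of 11858 in the genome. Only NTKO run 2 gave a peak in 275 of them (53.3%, against 57.7% in the genome), and only TKO run 2 in 83 (16.1%, against 10.6%). Peaks of NTKO run 2 and TKO run 2 alone met in 87 (16.9%, against 13.3% in the genome), and these with NTKO run 1 in 49 (9.50%, against 8.57%). Both NTKO runs without a TKO peak were seen in 14 regions (2.71%), against 557 (4.70%) in the genome, so the section had a lower share of them. Both TKO runs without an NTKO peak were seen in 0 regions, against 30 (0.25%) in the genome, and the TKO run 1 list has 11 peaks in the section.

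Of these 14 regions, chr9:139180429-139184866 was the highest, at 130 in NTKO run 1 and 185 in NTKO run 2. The region chr9:139898161-139905525 reached 54 and 178, and chr9:138154518-138155125 reached 58 and 154. All 3 had higher NTKO summits than any unmatched TKO peak of the section in run 2. The second is followed only by chr9:139905875-139906085, the last NTKO run 2 peak on the chromosome.

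Shared peaks were compared over pairs that were each other's largest overlap. In run 2 the section had 144 pairs. The NTKO summit was higher in 117 (81.3%, background 73.3%), and the NTKO peak was wider in 122 (84.7%, background 80.4%). The median log2 NTKO to TKO ratio was 0.38 for height and 1.18 for width, against 0.25 and 0.83 over all 2985 pairs of the genome. The rest of chromosome 9 was alike, at 0.45 and 1.15 over 165 pairs, whereas the chromosome 1 stretch went the other way, at -0.33 and -0.75 over 94 pairs.

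In run 1 the 7 pairs of the section had median log2 ratios of 0.88 for height and 2.39 for width, and NTKO was higher in 7 of 7. The 390 pairs of the genome had 0.86 and 1.47. The direction of the medians was the same in both runs, and the size was larger in run 1. All 7 run 1 pairs lay beyond the inner stretch, which held no run 1 peak, so they do not cover it.

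The pairs, too, divided along the section. In the inner stretch, TKO was higher in 16 of 18 pairs, with a median log2 height ratio of -0.35, and wider in 17 of 18, with a median log2 width ratio of -1.12. Before it, NTKO was higher in 7 of 7 pairs, with a median of 0.38. After it, NTKO was higher in 108 of 119 pairs, TKO in 10, and 1 was equal, with medians of 0.42 for height and 1.36 for width. Shared and unmatched peaks therefore leaned to TKO run 2 in the same stretch. The limits were drawn from the unmatched peaks of the same samples, so these values are no separate evidence.

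The lowest ratios were at 2 pairs of the inner stretch. At chr9:137194159-137194487 the NTKO run 2 summit was 43 and the TKO run 2 summit 88, a log2 ratio of -1.03, and at chr9:137158418-137158699 they were 54 and 99, a log2 ratio of -0.87. The largest ratio was at chr9:138646522-138647706, where NTKO run 2 reached 156 and TKO run 2 57, a log2 ratio of 1.45. At chr9:138583582-138587798 they were 107 and 50, a log2 ratio of 1.10. The largest lay in the longest cluster of the section.

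**Figure D4:**
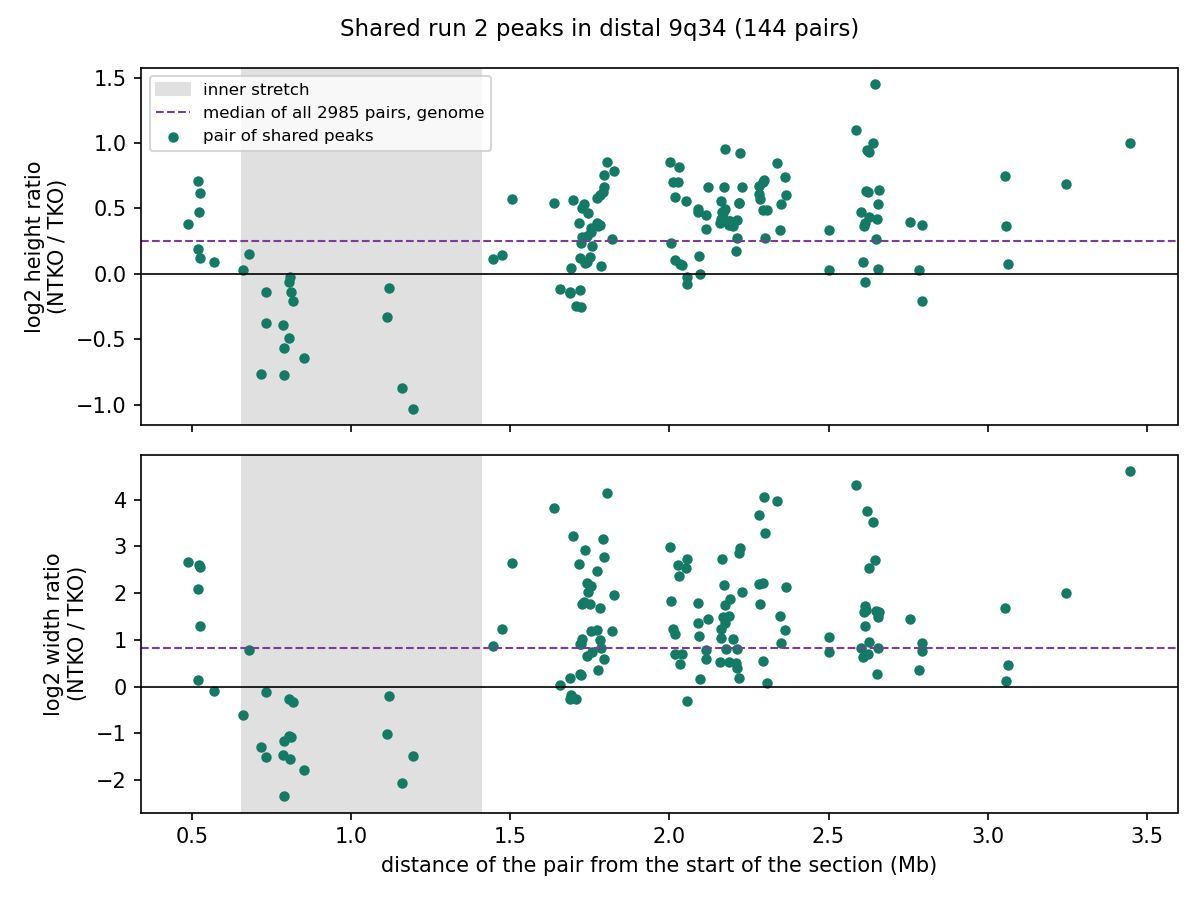
Log2 NTKO to TKO ratio of summit height (upper panel, y axis) and of width (lower panel, y axis) for the 144 pairs of shared run 2 peaks against distance from the start of the section in Mb (x axis), with the median of all 2985 pairs as a dashed line. The 18 pairs of the shaded inner stretch have medians of -0.35 and -1.12, and the 119 pairs beyond it 0.42 and 1.36.

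Only regions with a peak in all 4 lists have a height in every sample, and distal 9q34 had 6 of the 326 in the genome. At chr9:138602765-138610377 the summit was 107 and 211 in NTKO runs 1 and 2, and 73 and 198 in TKO runs 1 and 2. At chr9:139057060-139061206 the heights were 131, 209, 49 and 162 in the same order, and at chr9:139062881-139065741 they were 125, 159, 68 and 151. In all 3, NTKO was above TKO within each run, while TKO run 2 was above NTKO run 1.

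The region chr9:137810929-137824740, the longest of the 6 at 13.8 kb, had heights of 80, 197, 51 and 164. At chr9:138752859-138762354 they were 109, 184, 44 and 140, and at chr9:138013754-138016835 they were 69, 185, 42 and 139. The lines overlapped in all 6 regions, because both run 2 values exceeded both run 1 values. All 6 lay beyond the inner stretch, between 1.81 and 3.06 Mb from the start of the section, so the test over samples does not touch the peaks in which TKO cells were higher.

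**Figure D5:**
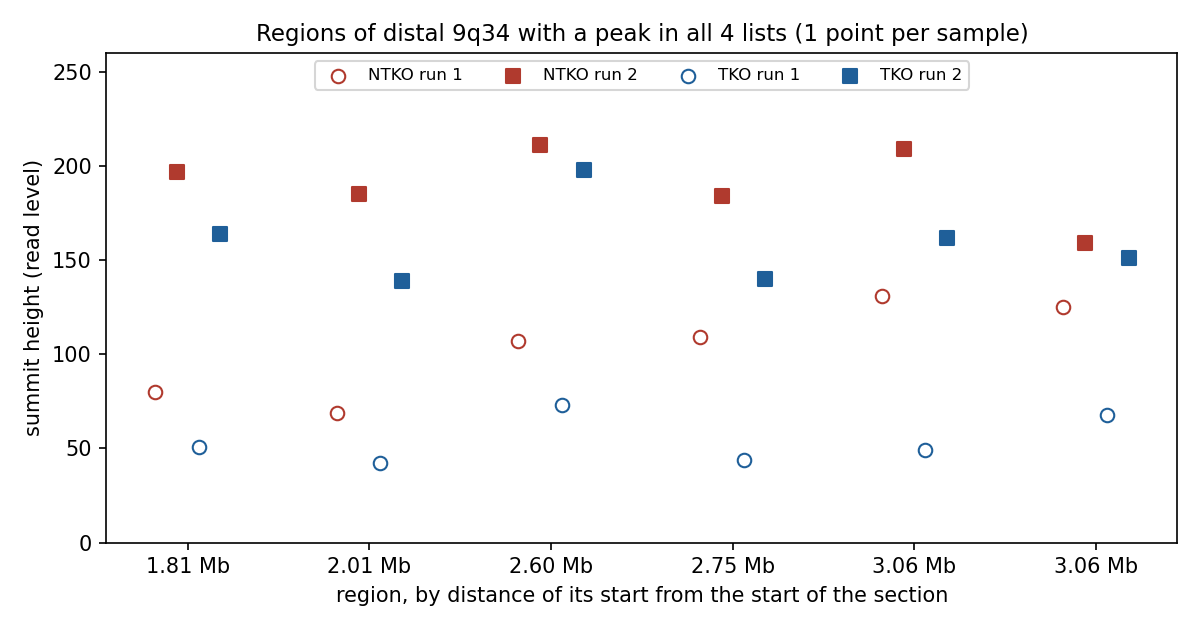
Summit height in read level (y axis) of the 6 regions with a peak in all 4 lists, ordered by distance from the start of the section (x axis), with open circles for run 1 and filled squares for run 2, and 1 point per sample. In each region both run 2 points lie above both run 1 points, and NTKO lies above TKO within each run.

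The log2 difference in height between NTKO and TKO cells was 0.89 ± 0.84 (SE, 2 samples per line) at chr9:139057060-139061206, the largest of the 6, and 0.32 ± 0.84 at chr9:138602765-138610377, the smallest. The limma test over all 326 regions, Benjamini-Hochberg adjusted, gave p of 0.944 and 0.951 for these. It called 0 regions at an adjusted p of 0.05 (background 0%), and 0 of the 326 had an unadjusted p under 0.05. The median over the 6 was 0.52, against 0.55 over all 326. NTKO was higher in both runs in 6 of 6 regions and in 232 of the 326.

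Heights in these 6 regions differed more by run than by line. The median difference over the 6 regions was 0.80 in run 1 and 0.32 in run 2. With the run number as a block, 2 of the 6 had an unadjusted p under 0.05, the lowest adjusted p among them was 0.186, and 0 regions were called in the genome. Scaling each sample to its median height shifts NTKO against TKO by 0.65, which turned the median of the 6 regions to -0.13, with 2 of 6 above 0, and that of all 326 to -0.09. With this scaling and the block, limma called 47 regions of the genome, 8 higher and 39 lower in NTKO cells, and 0 of the 6. The median was taken over the same 326 regions, so this scaling by itself brings their typical difference near 0. The 6 regions lay near that typical difference before scaling, so their turned sign follows largely from the setting. It is no separate evidence on the direction of the difference, which depends on whether heights are scaled.

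The next highest region of both lines in run 2, chr9:138348301-138353860, had the highest NTKO run 2 summit of the section, at 224. It reached 155 in TKO run 2 and 94 in NTKO run 1, and no peak was called in TKO run 1. It was therefore not among the regions tested.

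The limit at 136000000 fell in a gap between peaks. The last peaks before it were chr9:135958857-135958976 in NTKO run 2, with a height of 48, and chr9:135958248-135959499 in TKO run 2, with a height of 87. The first inside were chr9:136254861-136255228 in NTKO run 2, with a height of 57, and chr9:136337254-136337776 in TKO run 2, with a height of 74. At the other end, the last peak was chr9:139905875-139906085 in NTKO run 2 and chr9:139449151-139449251 in TKO run 2. The last window of the section thus had 5 NTKO run 2 peaks and no TKO run 2 peak. Before the excluded EGFL7 locus, the last peaks were chr9:138657754-138661898 in NTKO run 2 (height 139) and chr9:138657871-138659251 in TKO run 2 (height 89). The NTKO peak reached past 138660000 into the excluded stretch and was kept by its midpoint. The first peaks after the locus were chr9:138742302-138742661 in NTKO run 2 (height 73) and chr9:138753231-138754225 in TKO run 2 (height 80).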

How the data were processed

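EZH2 ChIP-seq peak lists of NTKO and TKO cells (2 runs each) were analyzed. After CASAVA 1.8, the authors mapped reads to hg18 using BWA, dropped those at identical positions, and used ChIPseeqer to call peaks per sample over input (2-fold, −log10 p of at least 15). The deposited signal columns give the mean read level and the summit height of a peak. The methods state a normalization of each data set to its input lane, but not whether these columns carry it or a scaling to depth. The deposited score column is a log10 p-value, and the deposited percent column gives the place of the summit. Positions are printed as the lists give them, and whether they count from 0 or 1 is not stated. Sequencing depth is unknown from the lists, so a single height carries no stated precision.

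Members, windows and lists were chosen with earlier results of these data known. Shared peaks met by 1 bp or more, run 2 was the main setting, and intervals are Wilson 95% intervals. A share of 0 is also given the limit of 3 counts. Regions named were those with a peak in all 4 lists and the 3 highest of each class in run 2. The 3 highest repeated in 1 line only and the widest peaks were named too. So were the 2 largest and 2 smallest height ratios and the run 2 peaks at the limits. Clusters and gaps were the 3 longest or fullest and were added after the data were seen. Log2 heights, without pseudocount, were compared by limma 3.58.1 (R 4.3.3) with Benjamini-Hochberg adjustment. Other steps used scipy 1.17.1, pandas 2.3.3, numpy 2.4.6 and matplotlib 3.10.9 in Python 3.11.15, and the computations were tested on simulated data. Alternatives were run 1, merging within 1 kb, a −log10 p of at least 20, 50% overlap, equal numbers of peaks, covered length, the run as a block, centering and leaving out each sample. No hg18 genome or annotation was used here, so peaks have no genes or sequences. RefSeq (GRCh38.p14) gave the order of genes only.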

Additional observations from a re-analysis of the deposited data

How the results depend on the processing

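The run decided most values. With run 1 in place of run 2, 11.7 NTKO peaks were counted per TKO peak, the unmatched shares were 9.09% (TKO) and 94.6% (NTKO), and the log2 ratios were 0.88 (height) and 2.39 (width). With run 2 peaks also found in run 1 they were 9.13, 12.5% and 91.8%. With equal numbers of the highest peaks per list the ratio of numbers was 0.587, the reverse of the direction with all peaks. The shares were 36.3% and 48.5%. This setting makes the whole lists equal in number, which by itself lowers the ratio and can turn its direction. Relative to the whole lists, the section leaned to TKO cells here too, as with all run 2 peaks (1.28 against 1.96 in the rest of the genome). By covered length of all run 2 peaks the ratio was 2.26. Overlap of at least 50% of both peaks raised the unmatched shares to 85.5% and 88.7%, lowered the median log2 ratios of the pairs to 0.52 for width and 0.20 for height, and lowered the share of run 1 peaks found again to 14.7% (NTKO) and 9.09% (TKO). Merging within 1 kb gave an unmatched NTKO share of 59.3%. Without the inner stretch, a setting chosen after seeing the data, the unmatched TKO share was 2.02%. The cause of these shifts was not tested. A −log10 p of at least 20 and counting the EGFL7 locus moved none of the values they were applied to by more than 1.5 times.

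The labels give both lines the same replicate numbers, here called runs. With this number as a replicate block, the ratio of peak numbers was 3.88 (geometric mean of both runs) and the log2 ratios 0.63 for height and 1.79 for width. In the 326 regions with a peak in all 4 lists, deviations from the line means in the same run had a correlation of 0.76. With 2 samples per line the other run mirrors this value, so it is no second observation. Heights of runs with the same number thus varied together over these regions. Whether such runs were processed together is not stated, so a pairing by design was not established. The blocked limma fit called 0 regions, and with centering 47. The median of the 6 regions of the section was -0.13 after centering, with and without the block. Centering by itself brings the median over all 326 regions near 0. Leaving out 1 sample at a time, it ranged from -0.20 (without TKO run 1) to 1.36 (without TKO run 2), with 0 regions called each time.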
